A study of Mus musculus with 10 samples.

Results

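Replication-dependent histone genes and Slbp, the gene of the protein that binds histone mRNA, were followed across sorted mouse intestinal cells. A probe set was taken where every gene symbol in the platform annotation began with H1f, H2ac, H2bc, H3c or H4c followed by a digit, also where several such symbols shared it, and the Slbp probe set was added. This gave 61 of the 41345 probe sets measured, 60 for histones and 1 for Slbp. Of the 60, 8 carried H1 symbols, 18 H2A, 13 H2B, 12 H3 and 8 H4, and 1 carried an H1 symbol together with H2B symbols. By number of symbols, 30 named 1 gene and 30 named several. With Slbp these named 62 of the 23981 genes of the annotation, and 29 of the 61 histone genes had a probe set of their own.

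The data were 10 microarrays, each a log2 intensity per probe set, from cells prepared as a single-cell suspension and sorted by flow cytometry. Of these, 6 arrays held intestinal stem cells sorted for a strong Lgr5 and GFP signal (Lgr5-high), from C57BL/6J mice of the genotype Lgr5-EGFP-IRES-creERT2, in which the Lgr5 promoter drives EGFP and an inducible Cre. The other 4 held crypt cells described as expressing Flattop, from FltpT2AiCre mice crossed with Gt(ROSA)26mTmG, in which the Flattop (Cfap126) promoter drives Cre and Cre switches a membrane colour reporter, on a mixed C57BL/6J, CD1, 129/SvJ background. The study set one population against the other, and all mice were 3 to 6 months old. A switched reporter stays switched, so the labelled cells can include descendants of cells that once used the Flattop promoter. The sort gates are not stated in the sources used here. Genotype and strain change together with the group, and the effects of the 3 cannot be told apart. The labels do not say whether arrays of a group stand for separate animals, and the p-values cover the spread between arrays alone.

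Cells make replication-dependent histones mainly in S phase, when new DNA has to be packaged. The core histones H2A, H2B, H3 and H4 form the nucleosome and the linker histone H1 binds the DNA between nucleosomes. Their genes lie in clusters and have no introns, and their mRNAs end in a conserved stem-loop in place of a poly(A) tail. SLBP binds that stem-loop and is needed for the processing, export, translation and timed decay of histone mRNA. In the intestinal crypt, Lgr5 stem cells and their transit-amplifying daughters divide, while differentiated cells leave the cell cycle. How the amplification kit primed RNA without a poly(A) tail is not given in the sources used here.

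The histone genes named by the probe sets lay mostly in the large cluster on chromosome 13 (48 of 61) and in a second on chromosome 3 (10 of 61). In 8 cases an H2A and an H2B gene on chromosome 13 stood head to head, with starts 164 to 281 bases apart. The promoters of the members that recur in the results are shown because the classes differ in the short elements upstream of their starts. Each run is the 150 bases before the RefSeq gene start (GRCm38.p6), written 5′ to 3′ on the gene's own strand. Capitals mark TATAAA on the gene's strand, and CCAAT, the octamer ATTTGCAT and the H1 box AAACACA on either strand (a match on the other strand reads as the reverse complement).
H1f5: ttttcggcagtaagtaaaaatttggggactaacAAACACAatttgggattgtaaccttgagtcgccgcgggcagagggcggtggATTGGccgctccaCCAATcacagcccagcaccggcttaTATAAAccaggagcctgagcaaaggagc
H2ac10: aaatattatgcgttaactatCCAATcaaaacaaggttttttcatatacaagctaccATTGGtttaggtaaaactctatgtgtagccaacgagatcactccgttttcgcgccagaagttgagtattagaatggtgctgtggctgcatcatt
H2bc12: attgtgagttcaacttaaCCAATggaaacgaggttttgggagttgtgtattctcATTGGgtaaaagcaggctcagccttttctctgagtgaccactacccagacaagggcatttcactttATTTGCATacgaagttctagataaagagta
H2bc18: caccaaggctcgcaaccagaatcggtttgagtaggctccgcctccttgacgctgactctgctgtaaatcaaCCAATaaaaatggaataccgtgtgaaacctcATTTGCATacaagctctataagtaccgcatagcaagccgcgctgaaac
H4c12: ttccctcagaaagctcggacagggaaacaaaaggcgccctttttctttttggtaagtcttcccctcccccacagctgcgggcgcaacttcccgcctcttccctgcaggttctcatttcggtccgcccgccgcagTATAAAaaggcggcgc
H4c9: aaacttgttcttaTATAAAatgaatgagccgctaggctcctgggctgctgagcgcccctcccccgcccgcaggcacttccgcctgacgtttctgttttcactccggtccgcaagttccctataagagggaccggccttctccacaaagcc
Slbp: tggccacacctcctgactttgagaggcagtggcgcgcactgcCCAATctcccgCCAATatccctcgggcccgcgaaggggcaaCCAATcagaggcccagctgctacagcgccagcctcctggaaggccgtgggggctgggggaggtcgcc

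These windows lie at chr13:21780626-21780775 (minus strand, H1f5), chr13:23533725-23533874 (plus, H2ac10), chr13:22035671-22035820 (plus, H2bc12), chr3:96269550-96269699 (plus, H2bc18), chr13:21750554-21750703 (minus, H4c12), chr13:22041363-22041512 (minus, H4c9) and chr5:33652575-33652724 (minus, Slbp). Each ends at the base before the first base of the gene. Promoter entries were found for 56 of the 61 histone genes, as 57 windows. CCAAT stood in 17 of 17 H2A and 14 of 14 H2B windows, in 7 of 9 H1 and 8 of 10 H3 windows and in 1 of 7 H4 windows, against 24.5% of all 32851 promoter windows of this length. The octamer stood in 6 of 14 H2B and 4 of 17 H2A windows, against 0.998% of all, and in 0 windows of the other classes. The H1 box stood in 5 of 9 H1 windows, 2 of 14 H2B windows and 1 of 17 H2A windows, against 3.53% of all. TATAAA stood in 4 of 9 H1, 6 of 17 H2A, 3 of 14 H2B, 3 of 10 H3 and 4 of 7 H4 windows, against 4.84% of all. The windows of a head-to-head pair overlap, so a match found on either strand can be counted for both of its genes. No motif overlapped another within the runs shown, and a match describes the letters and not binding.

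Intensities of different probe sets do not order their transcripts, because probes differ in response and no detection calls were used, so levels are compared within a probe set. Array medians ran from 4.56 to 4.77 and the median probe set had a mean of 4.75. A probe set with a mean above that value is called brighter below. Lgr5 did not separate the groups: its probe set of highest mean ran from 8.99 to 9.90 in Lgr5-high and stood at 9.19, 9.65, 6.44 and 8.21 in Flattop replicates 1 to 4 (limma adjusted p = 0.646). Cfap126 ran from 4.56 to 5.59 and stood at 4.67, 4.93, 6.20 and 5.89 (adjusted p = 0.736). In all, 167 of 41345 probe sets passed an adjusted p of 0.05, of which 161 were higher and 6 lower in Flattop. The median difference of all probe sets, Flattop minus Lgr5-high, was -0.08 on the log2 scale.

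Slbp had lower values in every Flattop array than in any Lgr5-high array, and its difference missed the threshold over the whole table. In Lgr5-high its lowest, median and highest log2 values were 8.26, 8.39 and 8.77. In Flattop it stood at 7.95, 7.69, 7.77 and 7.38 in replicates 1 to 4. The groups did not overlap, the highest Flattop value being below the lowest Lgr5-high one, and the means were 8.45 ± 0.20 (SD, n = 6) and 7.70 ± 0.23 (SD, n = 4). The difference was -0.75 (SE 0.15), with an unadjusted p of 0.000518 and a limma adjusted p of 0.0885 over 41345 probe sets. Lower calls made up 0.0145% of all probe sets and non-overlapping lower values 0.96%. At an adjusted p of 0.1, which 0.643% of all probe sets passed, Slbp passed and 0 histone probe sets did. Fitted to the probe sets with a gene symbol alone, the adjusted p was 0.0499, and with 1 probe set for each of 22180 genes it was 0.0468. The values and the difference are the same there, but the variance prior is estimated anew and fewer tests enter the adjustment. Under the other alternatives p ran from 0.0722 to 0.673, with 0.310 under a trended and robust variance prior, 0.140 after centring and 0.103 with a block for the title range described below. The sample titles carry numbers in 2 ranges, and Slbp was at -0.65 among titles 1 to 8 and at -0.85 among titles 38 to 46.

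Histone probe sets leaned to lower values in Flattop, and no single one passed the test. At a limma adjusted p of 0.05, 0 of 60 were called in either direction, against 0.404% of all probe sets, and the smallest adjusted p was 0.392. At an unadjusted limma p under 0.05, 7 of 60 were lower (11.7%, against 3.72% of all) and 0 were higher (against 4.37%). Differences were negative for 49 of 60 (81.7%), where 62.8% of all probe sets had a negative difference. The median difference was -0.25 over the 60.

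Among the 29 brighter histone probe sets the median difference was -0.66. The mean over all arrays sets this group, and 4 of the 29 (H1f1, H2ac11 with 9 others, H2bc12 and H4c9) reached it through Lgr5-high alone, so its size is a description. Of the 25 whose means lay above the cut in both groups, 20 had a negative difference (80.0%, against 53.5% of all probe sets chosen in the same way) and the median was -0.55, where that of all such probe sets was -0.03. All 10 histone probe sets with a mean above 8 in both groups had a negative difference, against 50.8% of all probe sets chosen so. Of the 10, 8 were distinct, and some of these share gene symbols, so they do not stand for separate genes. A difference below -1 was found for 12 of 60 (20.0%, against 2.14% of all), a pair with identical values among them. Above 0.5 stood 2 of 60 (against 9.59% of all). H4c9 was the 1 histone probe set whose groups did not overlap (1.67%, against 0.96% of all for lower values), and 0 were higher without overlap (against 1.42%). Because the table as a whole leaned to negative differences, the count was repeated on other scales: 45 of 60 were negative after a second quantile normalisation and 43 of 60 after centring each array on its median, against 56.9% and 53.0% of all probe sets on those scales.

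**Figure D1:**
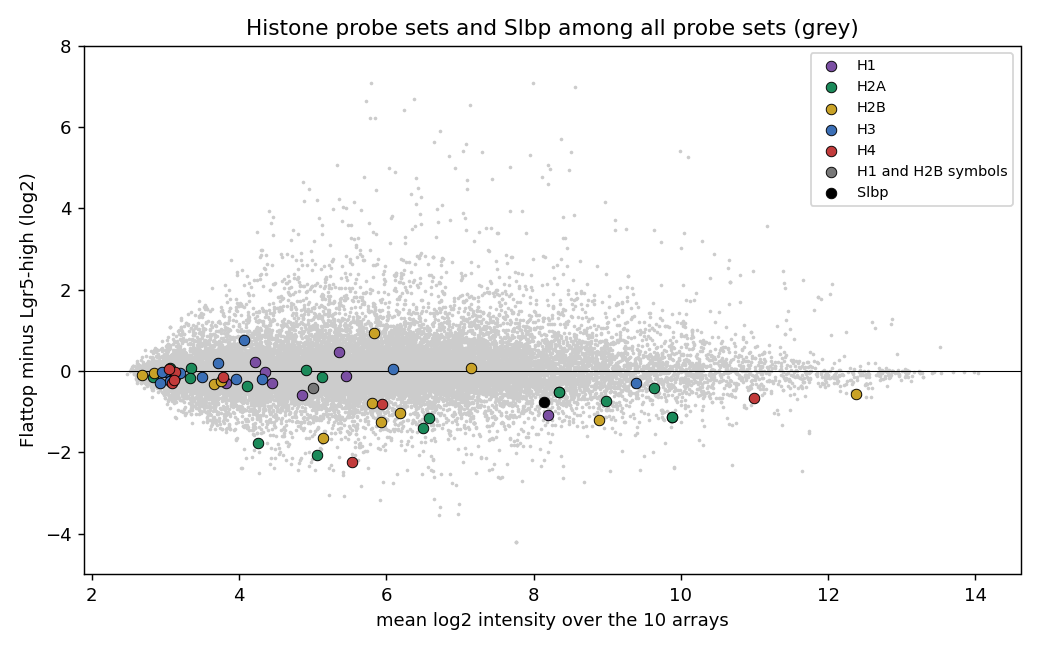
Difference between Flattop and Lgr5-high (log2, vertical axis) against the mean log2 intensity over the 10 arrays (horizontal axis) for every probe set (grey points), with the 60 histone probe sets coloured by class and Slbp in black. The 11 histone probe sets to the right of a mean of 8 lie below the line at 0, among them 2 pairs with identical values. Of all probe sets with a mean above 8, 50.8% have a negative difference. H1f5 passes that mean through Lgr5-high alone (8.64, against 7.55 in Flattop), so its direction follows from the cut.

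Markers of other cells differed between the same arrays. Of 11 measured T cell and intraepithelial lymphocyte genes, 10 were called higher in Flattop (against 0.389% of all probe sets), and the list mean ran from 4.41 to 4.85 in Lgr5-high and from 8.31 to 10.54 in Flattop. Called higher as well were 6 of 12 enterocyte genes (list means 6.67 to 7.51 against 8.96 to 10.41), 2 of 8 goblet genes (9.32 to 10.45 against 11.49 to 11.98), 4 of 9 Paneth genes (8.02 to 9.31 against 11.47 to 12.32) and 3 of 12 enteroendocrine genes (6.43 to 6.91 against 7.48 to 8.97). Of 13 stem cell genes 0 were called, 7 had a negative difference with an unadjusted p under 0.05 (53.8%, against 3.72% of all), all 13 differences were negative (against 54.4% of all brighter probe sets; median -0.63), and the list mean ran from 8.52 to 9.10 in Lgr5-high and from 7.48 to 8.76 in Flattop. Of 14 dissociation-response genes, all brighter, 0 were called and 2 were higher at an unadjusted p under 0.05 (14.3%, against 4.37% of all). Their differences were positive for 13 and negative for 1 (7.14%, against 54.4% of all brighter probe sets), with a median of 0.31. The part of these cells in the histone and Slbp values was not tested, and in sorted bulk RNA fewer dividing cells and less histone mRNA per cell cannot be told apart.

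**Figure D2:**
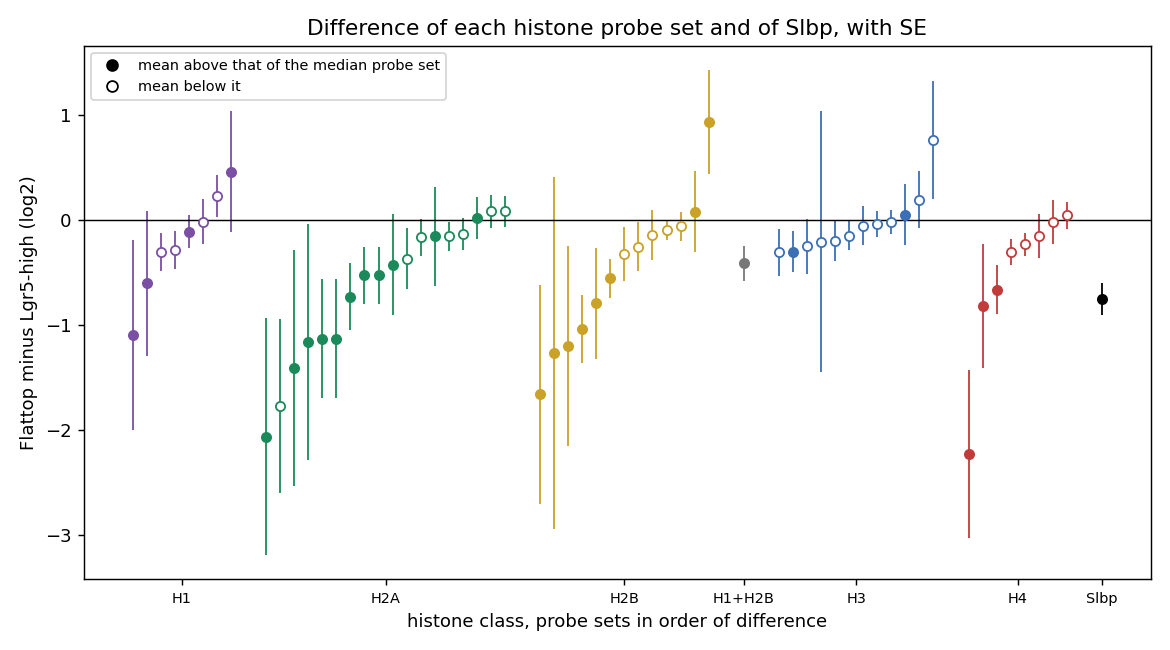
Difference between Flattop and Lgr5-high (log2, points) with its standard error from limma (vertical lines) for each of the 60 histone probe sets, ordered within class, and for Slbp. Filled points have a mean above the median probe set. Slbp lies at -0.75 with an SE of 0.15, and the differences below -1 belong to H1, H2A, H2B and H4.

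Among the H1 linker histones, 6 of 8 differences were negative (75.0%, against 62.8% of all probe sets), with a median of -0.20. At an unadjusted p under 0.05, 0 of 8 were lower (against 3.72% of all). H1f5, an S phase linker histone, had lowest, median and highest values of 7.01, 8.76 and 10.22 in Lgr5-high and stood at 9.33, 7.50, 5.04 and 8.33 in Flattop. The groups overlapped widely, and Flattop replicate 3 lay far below the other arrays. Its difference was -1.09 (SE 0.90, adjusted p = 0.752) and -0.25 without Flattop replicate 3. H1f2 leaned the other way, from 4.21 to 6.57 in Lgr5-high (median 5.17) and at 6.09, 5.53, 4.09 and 6.83 in Flattop (0.46, SE 0.58, adjusted p = 0.823). Leaving out Flattop replicate 4 gave 0.07 and leaving out Flattop replicate 3 gave 0.98. H1f6, the testis linker histone, was dim, with 3.67 to 4.44 against 3.27, 3.58, 3.87 and 3.85, and had the smallest p of the class (-0.30, SE 0.18, adjusted p = 0.696, and -0.18 without Flattop replicate 1).

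In the H2A class 6 of 18 differences lay below -1 (33.3%, against 2.14% of all probe sets), among them a pair with identical values. In H2B 4 of 13 did (30.8%). Of the 18 H2A differences 15 were negative (83.3%, against 62.8% of all), with a median of -0.48. At an unadjusted p under 0.05 the H2A class held 1 lower probe set, H2ac10 (5.56% of the class, against 3.72% of all probe sets). This gene had lowest, median and highest values of 8.73, 9.30 and 9.78 in Lgr5-high and stood at 9.02, 7.67, 8.38 and 9.11 in Flattop. Flattop replicates 2 and 3 lay below all Lgr5-high arrays and replicates 1 and 4 within their range, with a difference of -0.73 (SE 0.32, unadjusted p = 0.0486, adjusted p = 0.614), which was -0.44 without Flattop replicate 2.

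A probe set shared by H2ac18, H2ac19 and H2ac20 occurred in 2 copies with identical values in every array, as did one shared by 12 H2A symbols, so that 58 of the 60 histone probe sets were distinct. The first ran from 9.57 to 11.35 in Lgr5-high (median 10.29) and stood at 10.71, 9.19, 7.75 and 9.16 in Flattop. The difference was -1.13 (SE 0.57, adjusted p = 0.657), and -0.65 without Flattop replicate 3. The most negative H2A difference belonged to a probe set shared by H2ac11 and 9 other H2A symbols, at 3.72, 5.43 and 9.61 for the lowest, median and highest Lgr5-high array and at 5.13, 3.55, 3.53 and 3.09 in Flattop. Its difference was -2.06 (SE 1.13, adjusted p = 0.680) and rested in part on Lgr5-high replicate 6, without which it was -1.32. The most positive H2A difference was small, 0.08, for a dim probe set led by H2ac23 that carried the same 10 symbols. In all, 7 probe sets carried these symbols. The one of highest mean, led by H2ac22, was at -0.42 (SE 0.48, limma adjusted p = 0.806).

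In the H2B class 11 of 13 differences were negative (84.6%, against 62.8% of all probe sets), with a median of -0.32. At an unadjusted p under 0.05, 2 probe sets were lower (15.4%, against 3.72% of all). Both were annotated to H2bc7, H2bc11, H2bc13 and H2bc15. The first varied little in Lgr5-high, from 12.37 to 12.73 (median 12.64), and stood at 12.13, 11.84, 11.63 and 12.62 in Flattop. Of the Flattop arrays, 3 lay below every Lgr5-high array and replicate 4 lay among them (difference -0.55, SE 0.18, unadjusted p = 0.0134, adjusted p = 0.439). The second ran from 6.06 to 7.75 (median 6.45) and stood at 5.50, 5.30, 5.34 and 6.11, again with 3 Flattop arrays below all Lgr5-high ones. It had the smallest p of all histone probe sets (-1.04, SE 0.33, unadjusted p = 0.00977, adjusted p = 0.392). Of the 3 probe sets with these 4 symbols, the remaining dim probe set (mean 2.85) differed by -0.06 (SE 0.14, limma adjusted p = 0.914).

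H2bc12 and H2bc18, with an octamer in both promoters shown above, stood at opposite ends of the class. H2bc12 had lowest, median and highest values of 4.07, 4.67 and 9.65 in Lgr5-high and stood at 3.96, 4.07, 4.18 and 4.36 in Flattop. Its high values came from Lgr5-high replicates 1 and 5, at 7.51 and 9.65, and the other 4 lay between 4.07 and 4.84 (difference -1.66, SE 1.04, adjusted p = 0.705, and -0.89 without Lgr5-high replicate 5). H2bc18, in the chromosome 3 cluster, ran from 4.14 to 6.93 (median 5.33) and stood at 5.70, 6.49, 6.68 and 6.69. All 4 Flattop values were above the Lgr5-high mean of 5.46 and within the Lgr5-high range, and the difference of 0.94 (SE 0.49, adjusted p = 0.674) was the most positive of the 60.

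Among the H3 probe sets 9 of 12 differences were negative (75.0%, against 62.8% of all probe sets), with a median of -0.10. At an unadjusted p under 0.05, 0 of 12 were lower (against 3.72% of all), and 10 of 12 lay below the median probe set. The probe set of highest mean, shared by 8 H3 symbols led by H3c15, ran from 9.03 to 9.85 in Lgr5-high (median 9.53) and stood at 9.44, 8.98, 8.99 and 9.41 in Flattop. The groups overlapped, and the difference was -0.30 (SE 0.20, adjusted p = 0.716). Another probe set with the same 8 symbols had the most positive H3 difference, 0.76 (SE 0.56, adjusted p = 0.732). It ran from 3.43 to 4.28 in Lgr5-high and stood at 6.66, 4.48, 3.38 and 3.58 in Flattop, so that the value rested on Flattop replicate 1, without which it was 0.05. The most negative H3 difference, -0.30 for a probe set of 4 symbols led by H3c1, rested on Lgr5-high replicate 4 and was -0.13 without it.

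In the H4 class 7 of 8 differences were negative (87.5%, against 62.8% of all probe sets), with a median of -0.27. At an unadjusted p under 0.05, 3 of 8 were lower (37.5%, against 3.72% of all). H4c12 had lowest, median and highest values of 10.60, 11.38 and 11.52 in Lgr5-high and stood at 10.95, 10.17, 10.31 and 10.97 in Flattop. All Flattop arrays lay below 5 of the 6 Lgr5-high arrays and Lgr5-high replicate 5 lay among them (difference -0.66, SE 0.23, unadjusted p = 0.0171, adjusted p = 0.468). H4c9 had the most negative difference of the 60, with 4.68, 5.85 and 9.33 in Lgr5-high against 3.94, 4.08, 4.49 and 4.30 in Flattop. The groups did not overlap, the Lgr5-high arrays spread over 4.65 log2 units and the Flattop arrays over 0.55, and the difference was -2.23 (SE 0.80, unadjusted p = 0.0197, adjusted p = 0.489). H4c17 was the third, dim in both groups, at -0.30 (SE 0.12, adjusted p = 0.585). H4c2 had the most positive difference, 0.05, with 2.73 to 3.35 in Lgr5-high and 3.04 to 3.17 in Flattop.

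The probe set annotated to H1f4 as well as H2bc4, H2bc6 and H2bc8 was also lower at an unadjusted p under 0.05 (-0.41, SE 0.16, adjusted p = 0.558). Core histone genes of a class are closely related in sequence, so a probe set with several symbols may read several copies, and which copy a histone probe set reads is uncertain.

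**Figure D3:**
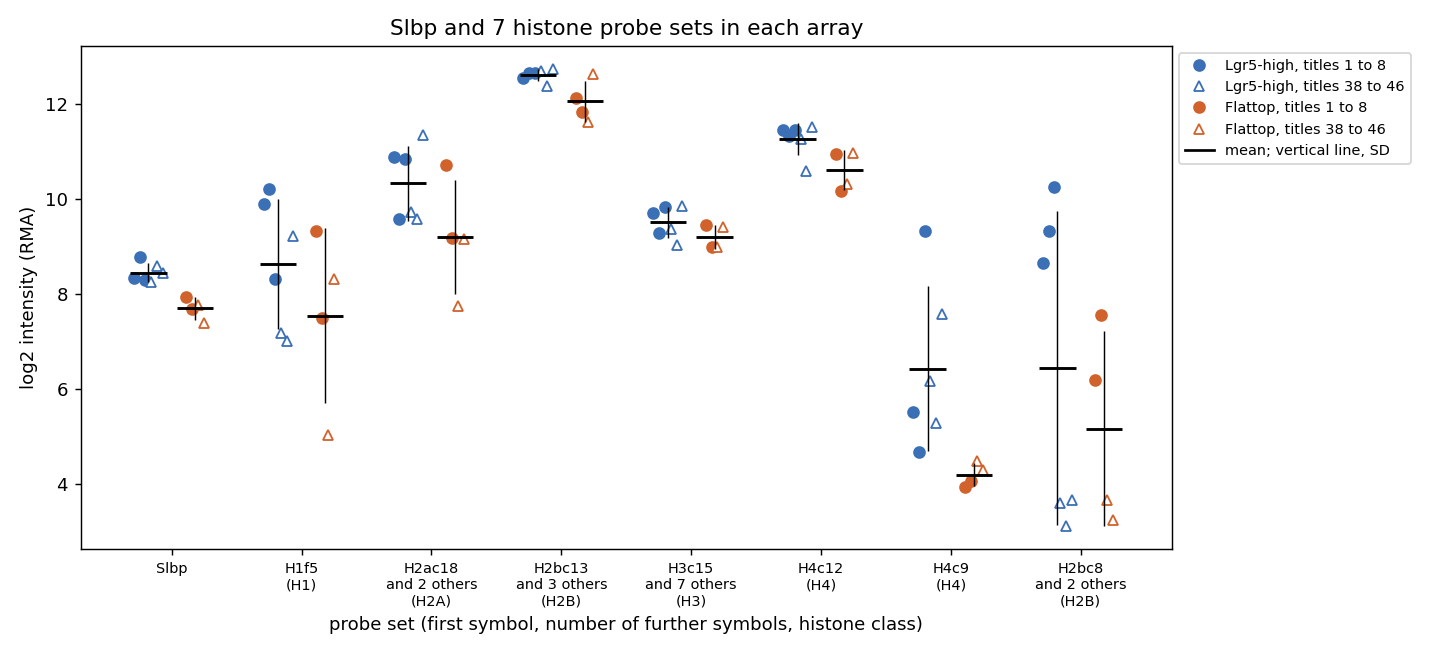
Log2 intensity in each array (vertical axis) for Slbp, the probe set of highest mean in each histone class, H4c9, and an H2B probe set of 3 symbols led by H2bc8 (horizontal axis). Lgr5-high is blue and Flattop orange, filled circles have title numbers 1 to 8 and open triangles 38 to 46, and black lines give the mean and SD. The groups separate for Slbp and H4c9, overlap for the others shown, and the last probe set separates by title number.

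Averaged over the probe sets of a class, the difference was negative for H1, H2A, H2B and H4 under every scaling tried, and for H3 it was near 0 and changed sign under 4 alternatives. These means are a description with no test. The H4 mean ran from 4.72 to 5.47 in Lgr5-high (median 4.94) and stood at 4.65, 4.32, 4.51 and 4.55 in Flattop. It was the 1 class mean whose groups did not overlap. The means were 5.05 ± 0.31 (SD, n = 6) and 4.51 ± 0.14 (SD, n = 4), a difference of -0.54. This separation rested on H4c9, which differed by -2.23, and the groups overlapped when that probe set was left out of the mean. They also overlapped when the H4 probe sets outside the naming rule were included, where the difference was -0.40.

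The H2A mean ran from 5.60 to 6.79 (median 6.20) and stood at 6.25, 5.30, 5.01 and 5.71, a difference of -0.65. Flattop replicates 2 and 3 lay below the Lgr5-high arrays, replicate 4 near their lowest and replicate 1 in the middle of their range. For H2B the mean ran from 5.39 to 6.39 (median 5.75) and stood at 5.44, 5.57, 4.92 and 5.48, a difference of -0.49, with Flattop replicate 3 below all Lgr5-high arrays.

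The H1 mean ran from 4.95 to 5.41 (median 5.13) and stood at 5.27, 4.93, 4.44 and 5.20, a difference of -0.21 that was -0.04 without Flattop replicate 3. The H3 mean ran from 3.97 to 4.59 (median 4.18) and stood at 4.32, 3.95, 4.07 and 4.28. Its difference of -0.04 was smaller than the spread within either group (SD 0.22 and 0.17) and was positive after a second quantile normalisation (0.004), after centring (0.02), without Lgr5-high replicate 4 (0.04) and without Flattop replicate 2 (0.03). Over the probe sets whose means lay above the median probe set in both groups the class differences were -0.25 for H1 (3 probe sets), -0.72 for H2A (10), -0.55 for H2B (7), -0.12 for H3 (2) and -0.74 for H4 (2).

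The individual arrays did not contribute evenly. Flattop replicate 3 was the lowest of the 10 arrays for 19 of the 60 histone probe sets (31.7%, against 9.72% of all probe sets). Flattop replicate 2 was the lowest for 17 of the 60 (28.3%, against 17.1%). Lgr5-high replicates 6 and 3 were the highest for 16 and 14 of the 60. The share of all probe sets was not counted for highest values, so these counts have no background beside them. Flattop replicate 3 also had the highest lymphocyte list mean, 10.54, and the lowest stem cell list mean, 7.48, and their part in its histone values was not tested. Without this array the median difference of the 60 was -0.21, where that of all probe sets was -0.10, and 46 of 60 were negative. Below -1 stood 5 of 60 without this array and 7 of 60 without Lgr5-high replicate 6, where 12 of 60 did with all arrays. For these counts the shares of all probe sets were not computed with an array left out. Without Flattop replicate 1, 12 of 60 were lower at an unadjusted p under 0.05 (against 2.79% of all), and without Flattop replicate 2 it was 4 of 60 (against 2.84%).

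**Figure D4:**
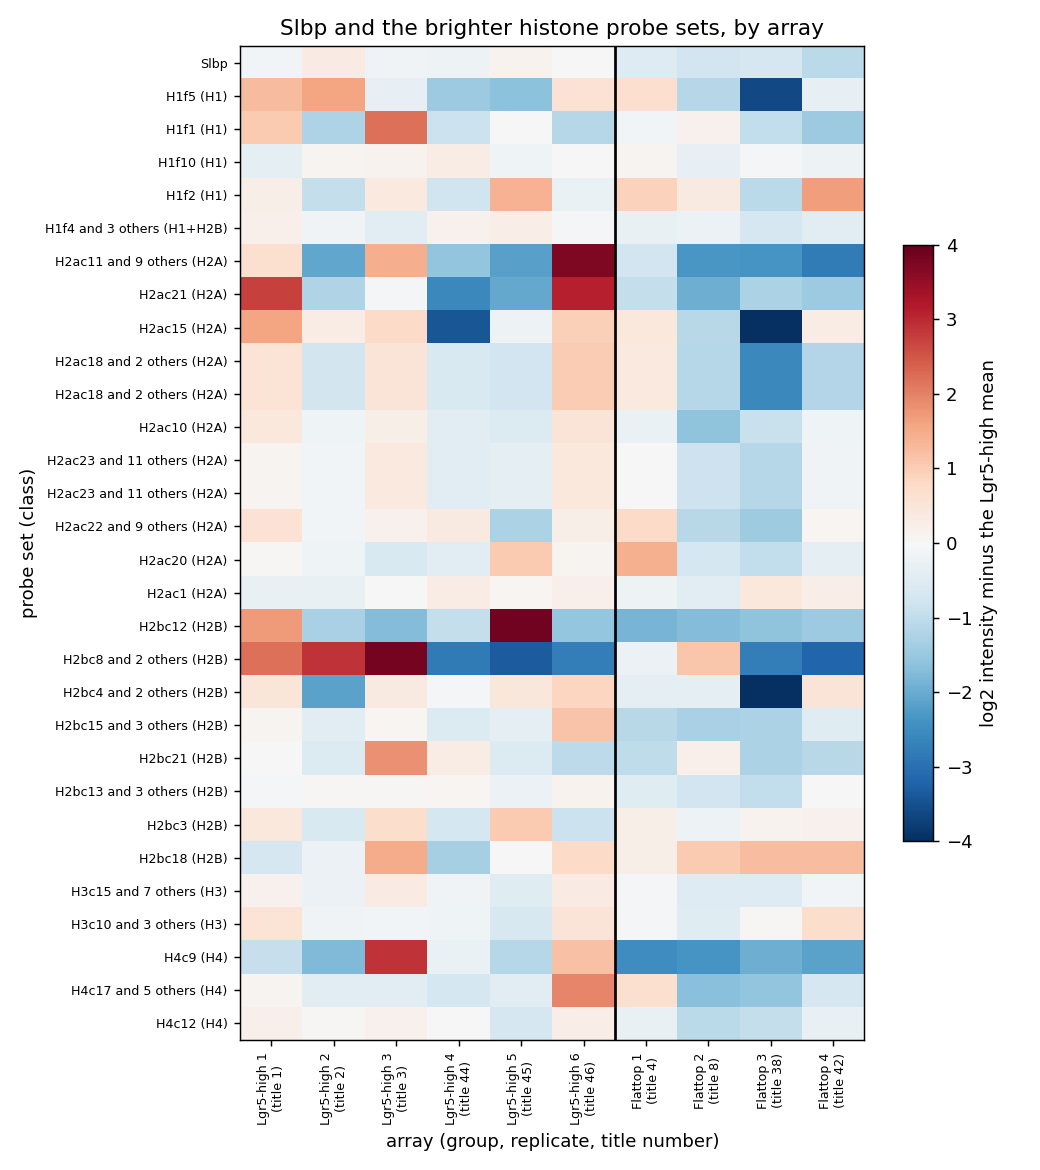
Log2 intensity of Slbp and the 29 brighter histone probe sets (rows, by class) in each of the 10 arrays (columns), as the difference from the Lgr5-high mean of the same probe set; blue is lower and red higher, and the colour scale ends at -4 and 4. The column of Flattop replicate 3 holds the lowest value of 13 of these histone rows (44.8%, against 13.8% of all brighter probe sets). Among the 13 are 2 pairs with identical values. Slbp is lower in all 4 Flattop columns.

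Several histone probe sets spread widely within Lgr5-high. The Lgr5-high arrays spanned more than 3 log2 units for 11 of 60 (18.3%, against 8.05% of all probe sets). One of them, annotated to H2bc4, H2bc6 and H2bc8 and picked after its values were seen, followed the sample titles, which are numbered 1 to 8 or 38 to 46. In Lgr5-high it stood at 8.65, 9.32 and 10.26 in the arrays with low title numbers and at 3.61, 3.12 and 3.66 in those with high ones. In Flattop it stood at 6.20 and 7.56 against 3.67 and 3.25. The high-number arrays were lower by a fitted -4.93 after adjusting for group (limma unadjusted p = 8e-06, adjusted p = 0.107), the third smallest p of 41345, and 0 probe sets of the table passed the adjusted threshold (0.0% of all).

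A second probe set with the same 3 symbols showed no such split, with 7.22 to 10.25 in Lgr5-high and 9.02, 8.99, 4.81 and 9.88 in Flattop. In all, 7 of 60 histone probe sets differed by title range at an unadjusted p under 0.05 (11.7%, against 7.52% of all). The labels do not say what the numbers stand for, and both groups occur in both ranges, with 3 Lgr5-high and 2 Flattop arrays in each. Within titles 1 to 8, 48 of 60 histone differences were negative (median -0.30), against 62.8% of all probe sets (median -0.11). Within titles 38 to 46 it was 49 of 60 (median -0.22), against 54.2% of all (median -0.03). The H4 class difference was -0.54 and -0.55 in the ranges, that of H2A -0.59 and -0.71, that of H2B -0.55 and -0.43, and that of H1 -0.23 and -0.20.

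Factors that make or process histone mRNA had no common direction. Of 19 measured genes of this pathway, 0 were called, 9 differences were negative and 10 positive, and the median was 0.02. At an unadjusted p under 0.05, 2 were lower (10.5%, against 3.72% of all probe sets). Snrpe, a core protein of spliceosomal snRNPs and of the U7 snRNP that helps cut histone mRNA, ran from 8.22 to 8.71 in Lgr5-high (median 8.56) and stood at 8.39, 8.18, 7.84 and 7.93 in Flattop (-0.43, SE 0.14, adjusted p = 0.450). Srrt, which links the cap-binding complex to RNA processing, had means of 9.25 ± 0.48 (SD, n = 6) and 8.48 ± 0.42 (SD, n = 4), a difference of -0.77 (SE 0.28, adjusted p = 0.486). For Snrpe, Flattop replicates 2, 3 and 4 lay below every Lgr5-high array, and for Srrt replicates 3 and 4 did.

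Hinfp, which activates H4 genes, leaned upward by 0.58 (SE 0.26, adjusted p = 0.619). It ran from 4.58 to 4.83 in Lgr5-high and stood at 5.75, 5.83, 4.96 and 4.39 in Flattop, so that 3 Flattop arrays lay above all Lgr5-high arrays and 1 below. Npat, the coactivator of replication-dependent histone genes, was at 0.12 and Casp8ap2, a component of the same nuclear bodies, at 0.56. The U7 snRNP proteins Lsm10 and Lsm11 were at -0.08 and 0.25, and the exonuclease Eri1, which trims histone mRNA ends, at -0.58. These 5 had adjusted p-values of 0.680 to 0.954 and were picked for their role, outside the naming rule.

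Variant histones, which are also made outside S phase, had mostly negative differences. Of 8 measured, 0 were called and 1 was lower at an unadjusted p under 0.05 (12.5%, against 3.72% of all). Differences were negative for 7 (87.5%, against 62.8%), with a median of -0.13. H1f10, at -0.11, is counted here and also among the 60 histone probe sets. H2az1, the H2A.Z variant of promoters, ran from 6.10 to 7.11 in Lgr5-high (median 6.68) and stood at 6.06, 5.01, 5.39 and 4.96 in Flattop. The groups did not overlap, although Flattop replicate 1 came within 0.1 of the lowest Lgr5-high array. Its difference was -1.24 (SE 0.26, limma adjusted p = 0.119), and without Flattop replicate 1 it was -1.47 and passed (adjusted p = 0.0341), with a range of 0.0341 to 0.673 over the alternatives. H2aj was at -0.50 (SE 0.23, adjusted p = 0.619) and H2az2 at -0.27 (SE 0.20, adjusted p = 0.737).

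Histone chaperones, which carry new histones to DNA, gave 0 calls among 16 measured and 2 lower at an unadjusted p under 0.05 (12.5%, against 3.72% of all). All 16 were brighter, and 11 differences were negative (68.8%, against 54.4% of all brighter probe sets), with a median of -0.33. Nasp, a chaperone that holds H3 and H4, ran from 8.41 to 9.23 in Lgr5-high (median 9.04) and stood at 8.76, 8.54, 6.71 and 7.74 in Flattop. Flattop replicates 3 and 4 lay below all Lgr5-high arrays and replicates 1 and 2 within them (-1.03, SE 0.37, adjusted p = 0.484). Rbbp4 was at -0.49 (SE 0.22, adjusted p = 0.611) and Chaf1b, a subunit of chromatin assembly factor CAF-1, at -0.44 (SE 0.20, adjusted p = 0.628).

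Other S phase genes had a negative median too. Of 29 measured, all of them brighter, 0 were called and 28 differences were negative (96.6%, against 54.4% of all brighter probe sets), with a median of -0.55. At an unadjusted p under 0.05, 9 of 29 were lower (31.0%, against 3.72% of all). Prim1, the primase subunit that starts new strands, ran from 7.95 to 8.92 in Lgr5-high (median 8.05) and stood at 7.07, 7.73, 4.35 and 3.72 in Flattop. The groups did not overlap and the Flattop arrays fell into a higher and a lower pair by title number. The difference was -2.51 (SE 0.73, adjusted p = 0.332), and it passed among titles 38 to 46 alone (-4.08, adjusted p = 0.0367) but not among titles 1 to 8 (-0.94, adjusted p = 0.676), the extremes of its alternatives. Pola1, of the same polymerase, was at -0.86 (SE 0.27, adjusted p = 0.382).

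The S phase list mean ran from 7.01 to 7.58 in Lgr5-high and stood at 7.20, 7.05, 6.26 and 6.33 in Flattop, a difference of -0.27 within titles 1 to 8 and -0.99 within titles 38 to 46. Over the same ranges the mean of all histone probe sets differed by -0.40 and -0.43. Of 19 G2/M genes, all brighter, 0 were called, 2 were lower at an unadjusted p under 0.05 (10.5%, against 3.72%) and 17 were negative (89.5%, against 54.4%; median -0.36), with the kinase Bub1 at -0.55 (SE 0.22, adjusted p = 0.564) and the spindle protein Nusap1 at -1.02 (SE 0.45, adjusted p = 0.608). The G2/M list mean differed by -0.0005 within titles 1 to 8 and by -0.73 within titles 38 to 46. Whether the ranges differ was not tested for these lists.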

How the data were processed

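Per the submitters' processing notes, the authors made the deposited log2 values with RMA in the R package oligo 1.38.0. Scanner files were not used here, arrays have no read depth, and precision is limited by having 10 arrays. Dim probe sets were kept. Symbols came from the platform annotation: 23521 probe sets had 1, 1814 several and 16010 none listed.

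All 41345 probe sets were fitted with limma 3.58.1 (lmFit, eBayes; R 4.3.3) as Flattop minus Lgr5-high. Tests were two-sided, p-values were adjusted by Benjamini-Hochberg over the table, and the threshold was 0.05. Fitting the whole table kept probe sets with several histone symbols. The code was tested on simulated data. Class means per array and list medians carry no test. The pathway lists held 21 genes of histone mRNA, 11 variants, 17 chaperones, 32 S phase and 20 G2/M genes, each gene by its probe set of highest mean.

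Named were Slbp, in each class the probe sets of highest mean, most positive and most negative difference and smallest p, and the 2 or 3 list genes of smallest p. Probe sets lower at an unadjusted p under 0.05 were named besides. The members and lists were chosen with earlier results of these data known.

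Alternatives were a second quantile normalisation, centring, dim probe sets (lowest 40%) left out, a trended robust prior, array weights, blocks for replicate number or title range, each title range alone, probe sets with a symbol, 1 probe set per gene, a threshold of 0.1, and each array left out. Chosen after seeing the data were 5 other memberships: with 13 further histone probe sets, without H1f7, H1f8 and H1f10, identical probe sets once, brighter ones alone, and those brighter in both groups. Promoters came from RefSeq (GRCm38.p6) and plots from matplotlib 3.10.9.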

Additional observations from a re-analysis of the deposited data

Results flagged for a closer look

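Of 46 groups of values tested for a single array far from the rest, 3 were flagged, and chance flags about 1 in 20. For a dim H3 probe set of 4 symbols led by H3c1, Lgr5-high replicate 4 stood at 3.93 and the other 5 arrays between 2.79 and 2.97. For H4c12, Lgr5-high replicate 5 stood at 10.60 and the others between 11.26 and 11.52. For H4c2, dim in both groups, Flattop replicate 2 stood at 3.17 and the others at 3.04 to 3.06.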

How the results depend on the processing

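Over 27 alternatives 0 histone probe sets were called, with the smallest adjusted p between 0.123 and 0.634. At an unadjusted p under 0.05, 7 were lower in the fit reported. Slbp kept its direction under all 21 of its alternatives (-0.85 to -0.65, adjusted p 0.0468 to 0.673, and 0.0800 to 0.223 when 1 array was left out), with a difference of -0.75 and an adjusted p of 0.0499 over probe sets with a symbol and of 0.0468 over 1 probe set per gene. The median histone difference was -0.60 without dim probe sets, -0.66 with the brighter ones alone and -0.55 with those brighter in both groups. The H4 class difference was -1.24 in the first 2 of these settings, which keep H4c9 by its Lgr5-high values, and -0.74 in the third. Cuts on a mean over both groups also keep probe sets that are high in 1 group alone. All other class differences stayed within 1 SD of the value reported, and H3 changed sign under 4 of its alternatives. Probe sets called over the table came to 7 with a replicate block, 44 within titles 1 to 8, 56 within titles 38 to 46, 266 at a threshold of 0.1, and 123 to 220 when 1 array was left out. Genes of the pathway lists called came to 1 within titles 38 to 46 (Prim1) and to between 0 and 1 when 1 array was left out (H2az1, without Flattop replicate 1). The cause was not tested. Among named probe sets, the sign turned for the dim H2A probe set of 10 symbols led by H2ac23, an H3 probe set of 8 symbols and H4c2.

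Replicate numbers did not pair the arrays. The deviations of same-numbered arrays correlated at 0.183, -0.129, 0.004 and 0.011, and with the replicate block Slbp stood at -0.72 (adjusted p = 0.576) and 0 histone probe sets were called. No detection calls or background signals were used, so which dim probe sets carry signal is not known.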

Other observations

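The naming rule leaves out 13 histone probe sets, 12 of them distinct, that carry a symbol outside its pattern, such as H4f16 or H2aw. Of these 8 had a negative difference and 5 a positive one (median -0.39), and 0 were called. At an unadjusted p under 0.05, 4 were lower (30.8%, against 3.72% of all), among them the pair with identical values. Lower values in every Flattop array than in any Lgr5-high array were found for 2 (15.4%, against 0.96% of all). The rule also takes in H1f7, H1f8 and H1f10, a testis, an oocyte and a replication-independent linker histone whose genes lie outside the clusters. They stood at 0.23, -0.01 and -0.11, with adjusted p-values of 0.761, 0.987 and 0.843, and without them the H1 class difference was -0.36.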
